A study of Mus musculus with 18 samples.

Results

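The members described here are the mouse zinc finger genes whose symbol runs from Zfp600 to Zfp999. They are the rows of both count tables whose Entrez identifier maps to such a symbol, a rule that uses names and no measured value. It found 159 of the 24100 genes listed, 158 of them annotated as protein coding, and 14 further symbols of the range are not analysed here.

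Zfp genes encode proteins with tandem C2H2 zinc fingers, each finger a short loop held by a zinc ion that reads a few bases of DNA. Many also carry a KRAB domain, which recruits the corepressor TRIM28 (KAP1) and through it the histone methyltransferase SETDB1, so that H3K9me3 is laid down where the fingers bind, often on endogenous retroviruses. ATRX, a chromatin remodeler that deposits histone H3.3 with DAXX, acts at the same kind of heterochromatin, and in several cell types it also occupies the 3′ ends of zinc finger genes themselves. KRAB zinc finger genes arose by repeated duplication and often lie in clusters of related copies. Some of these are near-identical, which limits how well reads can be assigned among them.

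The study compared RNA of C3H/10T1/2 (CCL-226) cells, a mouse mesenchymal progenitor line, with intact or disrupted *Atrx*, to ask how loss of ATRX changes expression without differentiation cues. The *Atrx* WT control line carries the Cas9 vector with no guide. The *Atrx* KO lines are 1 clone for each of 2 guide RNAs, sg5 (clone G7) and sg6 (clone B10). Each of the 3 groups has 3 polyA-selected and 3 rRNA-depleted libraries, 18 in all, and no label says that these came from separate cultures. The p-values below therefore measure the spread between libraries of 1 line. Anything else that sets a clone apart from the control line is part of the comparison.

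PolyA totals ran from 27544833 to 80772108 counts in WT, from 161036799 to 235346363 in sg5 and from 58918732 to 71896907 in sg6, and rRNA-depleted totals from 20135336 to 33187136. Levels are given as CPM, the counts relative to the library's total with TMM scaling, expressed per 1000000, and each value in a group is 1 library in replicate order. *Atrx* itself was at 276, 297 and 328 CPM in the WT polyA libraries, 138, 114 and 129 in sg5 and 122, 129 and 141 in sg6, so that RNA of the targeted gene was still present in both clones at a lower level. Of 10 mesenchymal markers none was at 0 in a group, but some differed between the groups. *Thy1*, a surface marker, had mean polyA levels (n = 3) of 0.997 CPM for WT, 0.307 for sg5 and 134 for sg6. *Eng* was higher than WT in both clones, with polyA log2 fold changes of 2.17 (sg5) and 1.73 (sg6). Its rRNA-depleted changes were 2.07 and 1.32. *Pdgfra* was lower in polyA, at -0.61 and -0.92. The summed level of 4 epithelial markers, almost all of it *Cdh1*, moved with the groups, being 2.76 to 5.03 CPM for WT, 0.89 to 1.71 for sg5 and 0.34 to 0.723 for sg6, and the pluripotency marker *Dppa4* was at 0.229, 0.00762 and 0 CPM. Summed leukocyte (3.36 to 5.14 CPM), endothelial (0.341 to 0.767) and pluripotency markers (0.799 to 1.61) were low in all groups. In such bulk libraries fewer cells of a type and less RNA per cell cannot be told apart, and the part of these marker differences in the results below was not tested.

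Of the 159 members, 106 encoded a KRAB pattern and 51 did not, while 2 had no coding model. The number of fingers found in the translated sequence ran from 0 to 33 with a median of 11. In all, 12 clusters held 4 or more members within reach of each other, where starts at most 1000000 bases apart join neighbours, and these 12 clusters took in 84 members. A further 48 members stood alone. For 16 members more than 50% of the 31-base words of their transcripts also occur in transcripts of other genes, so their counts depend on how shared reads were assigned.

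Most members were expressed in these cells. In WT, 137 of 159 had a mean polyA level of at least 1 CPM and 93 of at least 10 CPM. Per kilobase of exon the levels ranged from 0 to 26.9 CPM, with a median of 3.04. The highest 3 on that scale were *Zfp740* at 26.9, *Zfp706* at 25.3 and *Zfp825* at 24.6 CPM per kilobase in WT. *Zfp706*, a short protein with a single finger known for promoting exit from self-renewal in embryonic stem cells, had overlapping libraries in all 3 groups, 114 to 135 CPM for WT, 117 to 122 for sg5 and 114 to 129 for sg6. *Zfp740* was at 116, 139 and 156 CPM in WT and at 103, 110 and 112 in sg5, a log2 fold change of -0.33 ± 0.11 (SE; adjusted p = 0.0482) that did not reach the size required here.

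Differential expression was tested with edgeR's quasi-likelihood test over all genes of a kind of library, and a member was called at a log2 fold change beyond 1 together with an adjusted p (Benjamini-Hochberg) under 0.05. In the polyA libraries 148 members had enough counts to be tested, and the 11 others never exceeded 28 counts in a library. Against WT, 3 members were higher and 7 lower in sg5, and 3 were higher and 12 lower in sg6. Among all 15480 genes tested, 3.18% were higher and 6.96% lower in sg5, and 3.64% were higher and 7.54% lower in sg6, so the members' shares of 2.03% and 4.73% in sg5 and of 2.03% and 8.11% in sg6 were near or under the background. The median log2 fold change of the tested members was -0.07 in sg5 and -0.10 in sg6, beside -0.00 and -0.01 over all genes. For 122 members in sg5 and 121 in sg6 the change was smaller than 0.5 in either direction. In 32 members every sg5 library and in 38 every sg6 library lay below every WT library (20.3% and 20.0% of all genes), and in 23 and 17 above (21.2% and 22.4%).

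In the rRNA-depleted libraries 139 members were tested. There 2 were higher and 2 lower in sg5, and 2 were higher and 5 lower in sg6. Over the 56086 genes and transposable element loci tested in that fit, 1.19% were higher and 1.86% lower in sg5, and 0.842% were higher and 1.61% lower in sg6. Over its 13303 genes alone, 3.04% were higher and 4.31% lower in sg5, and 2.16% were higher and 3.59% lower in sg6, beside 1.44% and 1.44% of members in sg5 and 1.44% and 3.6% in sg6. The members' median log2 fold changes were 0.06 and -0.06, and those of all genes 0.08 and 0.04.

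Called in both clones in the polyA libraries were 2 members higher, *Zfp647* and *Zfp810*, and 7 lower, *Zfp600*, *Zfp980*, *Zfp773*, *Zfp936*, *Zfp618*, *Zfp985* and *Zfp982*. Over all genes 2.18% were higher and 5.48% lower in both clones, and the 2 comparisons share the WT libraries. In the rRNA-depleted libraries *Zfp647* and *Zfp764* were higher and *Zfp618* and *Zfp985* lower in both clones, where 0.496% of all features were higher and 1.09% lower. Over genes alone 1.36% were higher and 2.62% lower, beside 1.44% of members in each direction. No member was called in opposite directions in the 2 clones, nor in opposite directions in the 2 kinds of library.

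The members called against WT can be described by features that the rule did not use. Of the 16 called in either clone in the polyA libraries, 15 encoded a KRAB pattern, *Zfp618* being the exception. Low levels were common among them, since 7 of the 16 were below 1 CPM in WT, as were 11 of all 148 tested. For 5 of the 16, more than 50% of the transcript words are shared with other genes. Among the 100 tested members with a KRAB pattern 3 were higher and 6 lower in sg5 and 3 higher and 11 lower in sg6. Among the 46 without it 0 were higher and 1 lower in each clone. In rRNA-depleted RNA 2 of 92 with the pattern were higher in each clone. There 1 was lower in sg5 (1.09%) and 4 in sg6 (4.35%). Of the 45 tested there without it, 0 were higher and 1 was lower in each clone (2.22%). Over all genes in polyA 3.18% were higher and 6.96% lower in sg5, and 3.64% and 7.54% in sg6. Over genes alone in rRNA-depleted RNA these shares were 3.04% and 4.31%, and 2.16% and 3.59%. Whether the calls depend on the KRAB pattern was not tested.

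A single cluster held more than 1 called member, at the distal end of chromosome 4. This cluster spans chromosome 4 from 145670697 to 147849126 (GRCm38.p6) and holds, in order, *Zfp980*, *Zfp987*, *Zfp600*, *Zfp992*, *Zfp981*, *Zfp982*, *Zfp985*, *Zfp979*, *Zfp984* and *Zfp933*. All 10 encode a KRAB pattern, and KRAB zinc finger proteins of this region are known as binders of endogenous retroviruses. In polyA 9 were tested, of which 4 were lower in sg5 and 6 in sg6, beside 6.96% and 7.54% of all genes. The median of the 9 was -0.60 in sg5 and -1.20 in sg6 on the log2 scale, beside -0.03 and -0.06 for the other genes of the chromosome. With 500000 bases as the joining distance it splits into 2 clusters of 5 members, and the 1 from *Zfp980* to *Zfp981* had medians of -1.30 and -1.92 over 4 tested members. The other, from *Zfp982* to *Zfp933*, had medians of -0.04 and -1.06 over 5. In rRNA-depleted RNA 7 of the 10 were tested, and 1 was lower in sg5 and 2 in sg6, beside 4.31% and 3.59% of all genes. The medians of the 7 were -0.17 and -0.32.

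Sequence shows how alike these copies are. RefSeq (GRCm38.p6) gives promoter windows, 250 bases before to 50 after a start site, for 139 of the 159 members and for 9 of these 10. For 7 of the 8 members other than *Zfp985* a window was 76% or more identical to that of *Zfp985*, and the windows of *Zfp600* and *Zfp979* were 96.3% identical to each other. The windows of 4 are printed 5′ to 3′ because their genes had different RNA values. The capitals mark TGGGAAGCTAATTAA, the longest run present in these 7 windows and in that of *Zfp985*.
Zfp600 (chr4:146156577-146156876, plus strand): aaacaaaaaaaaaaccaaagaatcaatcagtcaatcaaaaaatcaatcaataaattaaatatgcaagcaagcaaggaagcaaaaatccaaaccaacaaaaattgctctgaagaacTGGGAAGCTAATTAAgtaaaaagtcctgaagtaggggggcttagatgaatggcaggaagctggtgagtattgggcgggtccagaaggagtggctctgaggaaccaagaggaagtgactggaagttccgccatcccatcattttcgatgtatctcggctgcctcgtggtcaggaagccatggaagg
Zfp979 (chr4:147642459-147642758, minus strand): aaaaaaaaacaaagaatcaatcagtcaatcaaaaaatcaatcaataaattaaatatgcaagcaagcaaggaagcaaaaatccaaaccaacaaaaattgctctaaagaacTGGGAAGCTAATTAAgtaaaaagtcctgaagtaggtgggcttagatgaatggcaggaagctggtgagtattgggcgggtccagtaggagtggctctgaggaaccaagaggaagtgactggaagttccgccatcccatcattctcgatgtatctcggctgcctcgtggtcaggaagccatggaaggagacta
Zfp985 (chr4:147553027-147553326, plus strand): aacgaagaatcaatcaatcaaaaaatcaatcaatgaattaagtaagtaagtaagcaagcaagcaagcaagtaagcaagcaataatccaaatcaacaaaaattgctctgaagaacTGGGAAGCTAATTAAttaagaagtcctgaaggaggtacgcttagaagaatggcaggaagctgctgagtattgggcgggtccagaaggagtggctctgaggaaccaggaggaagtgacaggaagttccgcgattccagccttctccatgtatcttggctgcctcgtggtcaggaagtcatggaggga
Zfp984 (chr4:147809739-147810038, minus strand): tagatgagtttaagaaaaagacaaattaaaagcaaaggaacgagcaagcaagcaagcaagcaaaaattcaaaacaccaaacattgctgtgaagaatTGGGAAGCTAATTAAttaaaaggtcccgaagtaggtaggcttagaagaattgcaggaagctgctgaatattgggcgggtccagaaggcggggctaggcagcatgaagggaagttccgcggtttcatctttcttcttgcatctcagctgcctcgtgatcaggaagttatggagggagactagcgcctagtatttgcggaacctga
Searched on both strands, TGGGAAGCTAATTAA was found in the windows of 12 of 27025 genes (0.0444%), all on chromosome 4 and 8 of them members: *Zfp600*, *Zfp979*, *Zfp980*, *Zfp981*, *Zfp982*, *Zfp984*, *Zfp985* and *Zfp987*. Since the run was taken from these windows, its share is a description. CCAAT, also on both strands, was in 8 of the 9 promoters, in 61.2% of all members with a window and in 41.1% of all genes. GGGCGG was in 7 of the 9, in 48.2% of members and in 38.2% of all genes. The window of *Zfp933*, 49.7% identical to that of *Zfp985*, lacks the shared run.

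*Zfp985*, with 39.4% of its words shared with other genes, was the cluster member with calls in both clones and both kinds of library. Its polyA levels were 4.02, 4.12 and 4.65 CPM in WT, 1.8, 1.92 and 1.74 in sg5 and 1.23, 1.01 and 1.33 in sg6. All clone libraries lay below all WT libraries, and the log2 fold changes were -1.23 ± 0.15 (SE; adjusted p = 0.000484) in sg5 and -1.84 ± 0.16 (adjusted p = 5.6e-05) in sg6. In rRNA-depleted RNA it was at 3.81, 4.28 and 3.51 CPM in WT, 1.12, 1.73 and 1.62 in sg5 and 0.905, 1.68 and 1.23 in sg6, again without overlap. Those changes were -1.38 ± 0.30 (adjusted p = 0.0194) and -1.60 ± 0.30 (adjusted p = 0.00941). The rRNA-depleted calls were not stable, as 6 of the 9 fits that leave out 1 library lost the call in sg5 and 3 of 9 lost it in sg6, with adjusted p of up to 0.0991 and 0.0669.

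*Zfp600*, *Zfp980* and *Zfp982* were lower in both clones at low levels. *Zfp600* had 0.489, 0.378 and 0.467 CPM in the WT polyA libraries, 0.0379, 0.118 and 0.0802 in sg5 and 0.0296, 0 and 0 in sg6. In sg6 this rested on 2 counts in all against 68 in WT, a ratio of WT to sg6 of 39.3 with an exact 95% interval of 10.5 to 331 for counting error only. Its rRNA-depleted levels were also below WT in every clone library (0.406 to 0.525 CPM for WT, 0 to 0.115 for sg5 and 0 to 0.219 for sg6), with adjusted p of 0.187 and 0.306 that did not pass. Because 87.3% of its transcript words occur in other genes, *Rex2* nearby having more of them than any other, the split of reads between the 2 genes is uncertain. Predicted genes also overlap *Zfp600*, *Gm13170* on the same strand and others on the opposite strand, so part of its counts may be theirs. *Rex2*, a zinc finger gene outside the naming rule, was itself at 3.28, 2.96 and 3.16 CPM in the WT polyA libraries, 1.29, 0.907 and 1.25 in sg5 and 0.814, 0.819 and 0.799 in sg6.

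*Zfp980* fell by 2.00 ± 0.27 (SE; adjusted p = 0.00079) on the log2 scale in sg5 and by 2.65 ± 0.32 (adjusted p = 0.000335) in sg6, with 0.978, 1.12 and 0.823 CPM in WT, 0.208, 0.257 and 0.265 in sg5 and 0.207, 0.0803 and 0.178 in sg6. Other genes, *Zfp600* most, share 82.8% of its words. *Zfp982*, with 29.7% of its words shared, had 2.79, 2.59 and 3.0 CPM in WT, 1.67, 1.0 and 1.12 in sg5 and 0.681, 0.659 and 0.959 in sg6. The drop was -1.14 ± 0.23 (log2, adjusted p = 0.0067) in sg5 and -1.87 ± 0.25 (adjusted p = 0.000612) in sg6, and without sg5 replicate 2 the first was no longer called. Neither gene had enough rRNA-depleted counts to be tested. For *Zfp982* those counts were 7, 9 and 11 in WT, 8, 6 and 3 in sg5 and 0, 1 and 1 in sg6, so that sg5 overlapped WT and sg6 did not.

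*Zfp981* passed in sg6 alone. It had 1.57, 2.37 and 2.31 CPM in the WT polyA libraries, 1.39, 1.44 and 1.34 in sg5 and 0.829, 0.803 and 1.12 in sg6, a log2 difference from WT of -0.60 ± 0.20 for sg5 (adjusted p = 0.0539) and -1.20 ± 0.21 for sg6 (adjusted p = 0.00273). In rRNA-depleted RNA the changes were -1.69 ± 0.55 (adjusted p = 0.12) and -2.85 ± 0.61 (adjusted p = 0.0205). The direct comparison of the clones gave 0.60 ± 0.21 in polyA (adjusted p = 0.165), so a difference between sg5 and sg6 was not shown.

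*Zfp979*, *Zfp933* and *Zfp992* were tested and not called. *Zfp979* was the highest of the 10 in polyA, with 25.2, 26.5 and 25.1 CPM in WT, 30.3, 28.9 and 28.0 in sg5 and 28.8, 28.6 and 32.6 in sg6. Both clones lay above WT by 0.19 ± 0.08 and 0.23 ± 0.08 (log2) with adjusted p of 0.122 and 0.0576, and its promoter window is the one most like that of *Zfp600*. *Zfp933* was at 14.0 to 16.5 CPM for WT, 14.9 to 15.2 for sg5 and 12.8 to 13.7 for sg6, and *Zfp992* at 8.34 to 9.7, 7.16 to 7.52 and 6.15 to 7.07, neither of them called. *Zfp987* had 0, 25 and 7 counts in WT, 10, 27 and 13 in sg5 and 5, 0 and 4 in sg6, too few to test.

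*Zfp984* differed between the clones in polyA, by 1.04 ± 0.13 (adjusted p = 0.0015), and was called in polyA and not in rRNA-depleted RNA. In polyA it was at 9.08, 9.67 and 10.6 CPM in WT and 9.98, 9.62 and 9.51 in sg5, but at 4.14, 4.6 and 5.4 in sg6, a log2 fold change of -1.06 ± 0.13 in sg6 (adjusted p = 0.00037) and of -0.01 ± 0.12 in sg5 (adjusted p = 0.954). The sg6 call was lost without WT replicate 3 and without sg6 replicate 1. In rRNA-depleted RNA the sg6 libraries had 8.57, 6.82 and 8.81 CPM and overlapped those of WT, 7.62, 7.12 and 5.51, with a change of 0.26 ± 0.20 (adjusted p = 0.704). Transcripts of *Zfp984* share 68.8% of their words with other genes, *Gm13212* having more of them than any other, and the 2 tables were made by different counting methods.

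**Figure D1:**
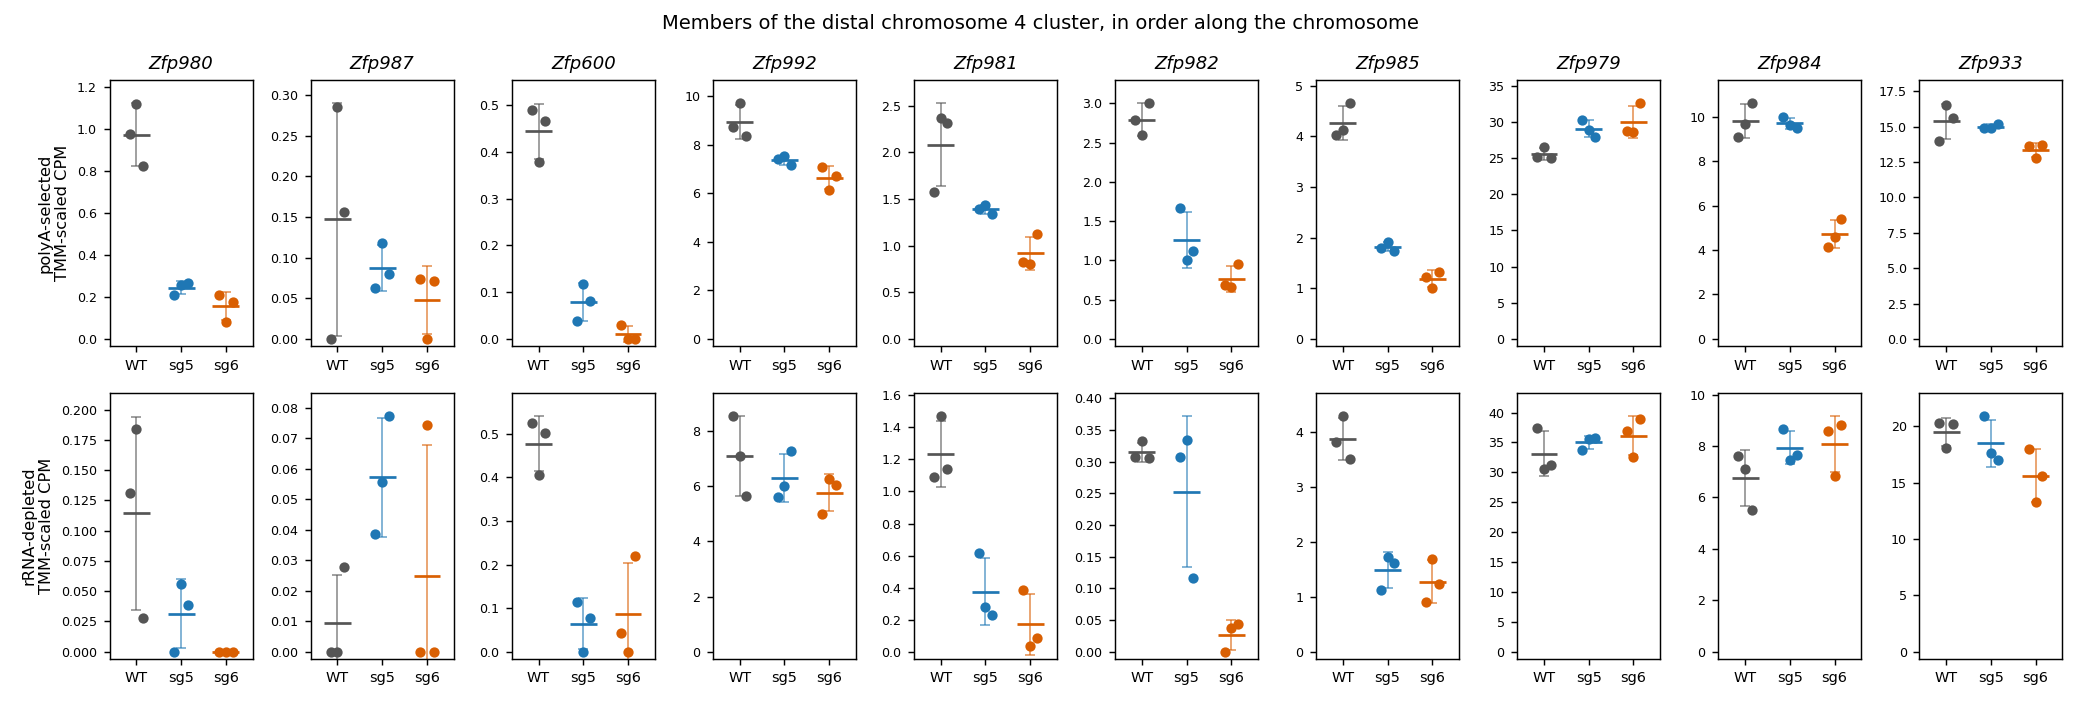
Level of each member of the distal chromosome 4 cluster in every library, polyA-selected above and rRNA-depleted below; y axes are TMM-scaled CPM from 0, points are libraries, bars the mean with SD of 3 libraries, and axes differ between panels. In polyA, Zfp985 fell from 4.02 to 4.65 CPM in WT to 1.01 to 1.33 in sg6, while Zfp979 stayed between 25.1 and 32.6 CPM in all 9 libraries.

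Some genes of the same span that are no members were also called. Of 6 such genes tested in polyA, 2 were lower in sg5 and 4 in sg6, and none was higher. Among all genes 6.96% and 7.54% were lower. *Zfp534*, whose window also holds the shared run, changed most, by -4.05 ± 0.52 (adjusted p = 0.000553) and -5.46 ± 0.79 (adjusted p = 0.000947). Its level was low, with a mean of 0.283 CPM in WT and 0, 1 and 0 counts in sg6. In rRNA-depleted RNA 1 of 3 tested, *Rex2*, was lower in sg5 and 0 in sg6, beside 4.31% and 3.59% of all genes. Summed over the 10 members, the cluster's polyA level was 66.8, 73.2 and 71.0 CPM in WT, 67.7, 65.8 and 64.5 in sg5 and 56.6, 54.8 and 62.1 in sg6. In rRNA-depleted RNA the sums were 79.7, 69.6 and 68.1 CPM in WT, 71.2, 69.1 and 69.8 in sg5 and 69.8, 60.7 and 71.0 in sg6. There both clones overlapped WT. *Zfp979*, *Zfp933*, *Zfp984* and *Zfp992* had the highest polyA levels in the cluster, and of these *Zfp984* was called lower in sg6 in polyA.

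The other 11 clusters showed single called members or none. The largest, 14 members on chromosome 17 from *Zfp677* to *Zfp945*, had none called in either kind of library, with polyA medians of 0.01 in sg5 and -0.09 in sg6. Its highest polyA change was that of *Zfp946*, at 16.9, 13.9 and 11.7 CPM in WT and 20.9, 22.1 and 21.8 in sg5 (log2 fold change 0.61 ± 0.13, adjusted p = 0.00811, not beyond 1), and its lowest by the mean of both clones that of *Zfp677*, at -0.34 ± 0.19 and -0.30 ± 0.19. In the second chromosome 17 cluster *Zfp799* was lower in both clones without reaching a log2 fold change of 1, at -0.68 ± 0.14 (adjusted p = 0.00828) and -0.71 ± 0.15 (adjusted p = 0.00584), and *Zfp870* was at -0.14 and 0.07.

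Clusters on chromosomes that shifted as a whole have to be read beside that shift. On chromosome 8 the other genes had polyA medians of 0.26 in sg5 and 0.28 in sg6. The cluster of 4 from *Zfp709* to *Zfp961* had medians of 0.30 and 0.16, and *Zfp709* was at 0.56 ± 0.13 (adjusted p = 0.0124) and 0.70 ± 0.13 (adjusted p = 0.00377), with *Zfp882* lowest at -0.18 and -0.36. The chromosome 8 cluster of 6 had medians of 0.06 and -0.03, with *Zfp869* highest at 0.35 and 0.24 and *Zfp964* lowest at -0.35 and -0.61. On chromosome 13 the other genes were at -0.06 and 0.25 and the 6 members at -0.28 and 0.06, from *Zfp759* at -0.54 and -0.10 to *Zfp738* at -0.00 and 0.26. The 6 members of chromosome 6 had medians of -0.21 and -0.07 beside -0.11 and -0.12 for the other genes, with *Zfp783* highest at 0.31 and 0.25 and *Zfp786* lowest at -0.70 and -0.13. Of 11 genes of that span that are no members, 1 was higher and 4 lower in sg5 in polyA. In sg6 0 were higher and 5 lower. Over all genes 3.18% were higher and 6.96% lower in sg5, and 3.64% and 7.54% in sg6. In rRNA-depleted RNA 0 of 9 such genes were called in either clone.

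On chromosome 7, 3 clusters each held 1 called member. In the cluster with *Zfp773* the 5 members had polyA medians of -0.28 and -0.58, from *Zfp787* at -0.03 and 0.03 down to *Zfp773*. *Zfp773* went from 0.349, 0.618 and 0.801 CPM in WT to 0.202, 0.109 and 0.179 in sg5 and 0.192, 0.0964 and 0.178 in sg6, a fall by 1.90 ± 0.36 (adjusted p = 0.00463) and 1.95 ± 0.40 (adjusted p = 0.00611) on the log2 scale. In the cluster with *Zfp936* the medians were -0.12 and -0.39, with *Zfp715* highest at 0.22 and 0.07. *Zfp936*, with 31.4% of its words shared, had 0.314, 0.503 and 0.334 CPM in WT, 0.101, 0.127 and 0.142 in sg5 and 0.0592, 0.0482 and 0.107 in sg6, all below WT, with changes of -1.69 ± 0.30 and -2.49 ± 0.38 (adjusted p = 0.00342 and 0.0012). Neither gene had enough rRNA-depleted counts to be tested. Among other genes in polyA, 2 of 10 tested in the span of the *Zfp773* cluster were lower in each clone, and 1 (sg5) and 2 (sg6) of 7 in that of the *Zfp936* cluster. In rRNA-depleted RNA 2 and 3 of 7 were lower in the first span and 0 of 4 in the second. Over all genes 6.96% were lower in sg5 and 7.54% in sg6 in polyA, and 4.31% and 3.59% in rRNA-depleted RNA.

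The third chromosome 7 cluster held *Zfp764*, which rose and shares 47.5% of its words with other genes. Its polyA levels were 2.83, 2.55 and 2.89 CPM in WT, 4.01, 5.15 and 5.13 in sg5 and 6.75, 5.93 and 7.33 in sg6, with no overlap. The log2 fold change was 1.28 ± 0.15 in sg6 (adjusted p = 0.000369) and 0.79 ± 0.15 in sg5, where an adjusted p of 0.00511 went with a change under 1. In rRNA-depleted RNA it was called in both clones, from 1.93, 1.59 and 2.14 CPM to 4.35, 5.18 and 4.29 (1.28 ± 0.23, adjusted p = 0.00592) and 7.58, 6.6 and 6.48 (1.86 ± 0.23, adjusted p = 0.000379). The 9 members of this cluster had polyA medians of -0.06 and 0.01, with *Zfp768* lowest at -0.16 and -0.17, and none of the 22 other genes of the span tested in polyA was called. In rRNA-depleted RNA 1 of 20 such genes was higher and 1 lower in sg5, and 1 was higher in sg6. Over all genes there 3.04% were higher and 4.31% lower in sg5, and 2.16% were higher in sg6.

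The chromosome 2 cluster and the chromosome 9 cluster each held 1 called member as well. *Zfp970*, on chromosome 2, was at 43.8, 53.3 and 57.6 CPM in WT, 36.7, 33.7 and 35.9 in sg5 and 21.2, 25.7 and 29.5 in sg6. Its change in sg6 was -1.02 ± 0.14 (adjusted p = 0.000636), just past the required size, and in sg5 -0.54 ± 0.13 (adjusted p = 0.0164), and 67.9% of its words are shared with other genes. Without WT replicate 3 or sg6 replicate 1 it was not called. The 6 members there had medians of 0.07 and -0.22 beside 0.19 and 0.14 for the chromosome, with *Zfp931* highest at 0.25 and -0.10. On chromosome 9, *Zfp809*, which recruits TRIM28 to murine leukemia proviruses and was singled out here after its values were seen, was at 12.2, 15.1 and 14.7 CPM in WT, 14.1, 15.1 and 13.9 in sg5 and 14.3, 14.4 and 12.8 in sg6. On the log2 scale it differed from WT by 0.03 ± 0.11 and -0.02 ± 0.11 (adjusted p = 0.853 and 0.899), and *Zfp872* was lowest there at -0.37 and -0.35.

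**Figure D2:**
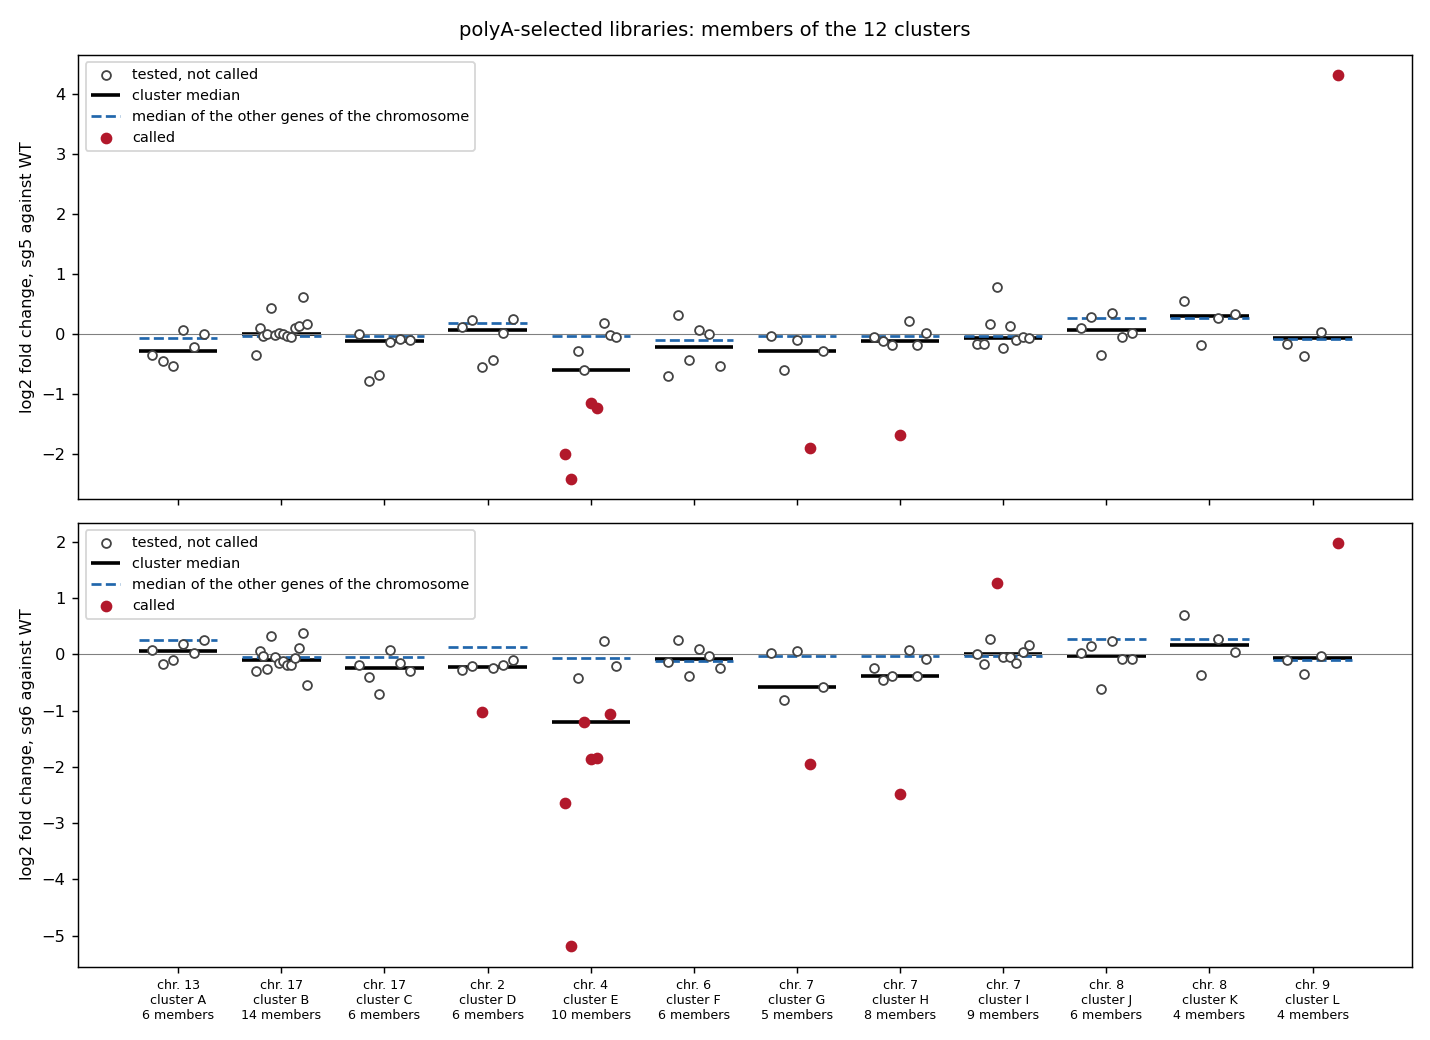
PolyA log2 fold change of every tested member of the 12 clusters (y axis), sg5 against WT above and sg6 against WT below; red points are called, open points are not, black lines are cluster medians and dashed lines the median of the other genes of the chromosome, and members are ordered along the chromosome. Cluster E, on distal chromosome 4, has medians of -0.60 and -1.20, and 4 and then 6 of its 9 tested members are called lower. Over all genes 6.96% and 7.54% are called lower.

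*Zfp810*, the neighbour of *Zfp809*, was close to absent in WT and present in sg5. Its polyA counts were 0, 5 and 3 in WT, 178, 231 and 143 in sg5 and 18, 12 and 7 in sg6, or 0, 0.0572 and 0.0667, 1.12, 1.01 and 0.882, and 0.266, 0.193 and 0.124 CPM. The log2 fold changes were 4.33 ± 0.43 in sg5 (adjusted p = 0.000155) and 1.98 ± 0.52 in sg6 (adjusted p = 0.019), and sg5 exceeded sg6 by 2.34 ± 0.33 (adjusted p = 0.00391). The call in sg6 was lost without WT replicate 2 and without sg6 replicate 1, at an adjusted p of up to 0.0682. Predicted genes on the same strand overlap *Zfp810*, so part of its counts may be theirs. In rRNA-depleted RNA there were 0, 2 and 1 counts in WT, 21, 2 and 8 in sg5 and 1, 1 and 1 in sg6, too few to test. The pooled ratio of sg5 to WT was 12.7 there, with an exact 95% interval of 3.97 to 65.0 for counting error only.

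*Zfp647*, a KRAB gene on chromosome 15 that shares none of its words with other genes, was the member called higher in both clones and both kinds of library. PolyA levels were 0.629, 0.446 and 0.489 CPM in WT, 1.17, 1.07 and 1.33 in sg5 and 1.35, 1.75 and 2.22 in sg6. The rises were 1.23 ± 0.24 (adjusted p = 0.00542) and 1.80 ± 0.24 (adjusted p = 0.00069) on the log2 scale. In rRNA-depleted RNA it rose by 2.13 ± 0.44 (adjusted p = 0.0153) and 2.67 ± 0.43 (adjusted p = 0.00305), on counts of 6, 7 and 4 in WT, 26, 21 and 15 in sg5 and 30, 32 and 34 in sg6. Without WT replicate 3 or sg5 replicate 2 the call in sg5 was lost there, with an adjusted p of up to 0.0949.

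*Zfp618*, whose protein binds the hydroxymethylcytosine reader UHRF2, was lower in both clones and both kinds of library and lacks a KRAB pattern. It lies on chromosome 4 at 62965555 to 63139709, far from the distal cluster. Its polyA levels were 5.48, 7.44 and 13.0 CPM in WT, spread more widely than 2.62, 2.61 and 3.46 in sg5 and 1.29, 3.04 and 3.21 in sg6. The changes were -1.58 ± 0.38 (adjusted p = 0.0151) and -1.79 ± 0.39 (adjusted p = 0.0081), and without sg5 replicate 2 the first was lost at an adjusted p of 0.056. In rRNA-depleted RNA the levels were 2.72, 2.91 and 3.31 CPM in WT, 0.847, 0.39 and 0.309 in sg5 and 0.991, 0.41 and 0.745 in sg6, with changes of -2.50 ± 0.41 (adjusted p = 0.00292) and -2.06 ± 0.40 (adjusted p = 0.0103). The last call was lost without WT replicate 3 and without sg6 replicate 3.

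*Zfp941* and *Zfp873* were called lower in sg6 and not called in sg5. *Zfp941*, on chromosome 7, had 0.734, 1.08 and 0.689 CPM in WT polyA libraries, 1.43, 1.15 and 1.2 in sg5 and 0.266, 0.337 and 0.426 in sg6. Its sg6 change was -1.32 ± 0.26 (adjusted p = 0.00509), its sg5 change 0.56 ± 0.23 (adjusted p = 0.104). In rRNA-depleted RNA its counts were 12, 25 and 22 in WT, 17, 16 and 21 in sg5 and 2, 2 and 0 in sg6, a change of -3.54 ± 0.62 in sg6 (adjusted p = 0.0056). *Zfp873*, on chromosome 10, was at 5.27, 8.05 and 9.92 CPM in WT, 5.66, 6.29 and 6.98 in sg5 and 2.68, 3.28 and 4.35 in sg6, a change of -1.18 ± 0.25 (adjusted p = 0.00674). The clones differed for it by 0.88 ± 0.25 (adjusted p = 0.0876), which did not pass, and in rRNA-depleted RNA the sg6 change was -1.44 ± 0.25 (adjusted p = 0.00477).

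**Figure D3:**
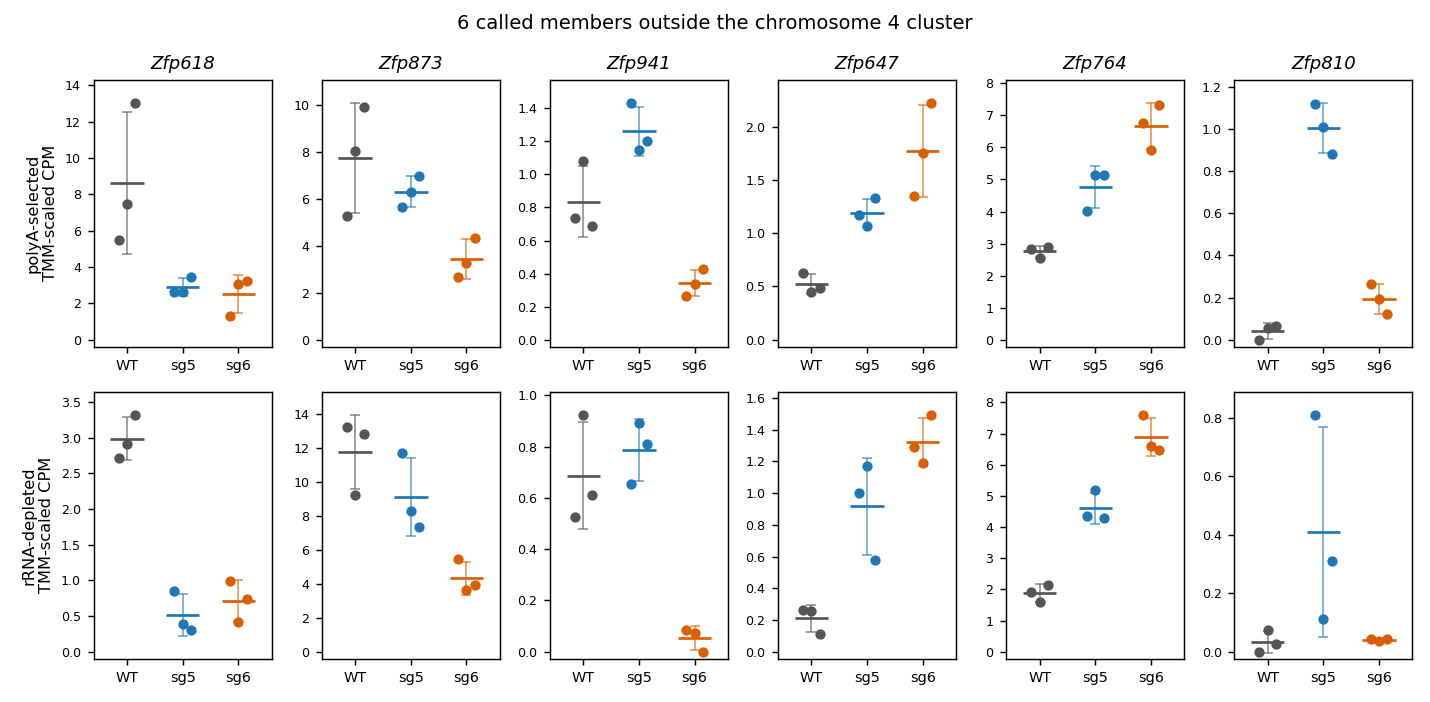
Levels of 6 called members outside the distal chromosome 4 cluster in every library, polyA-selected above and rRNA-depleted below; y axes are TMM-scaled CPM from 0, points are libraries and bars the mean with SD of 3 libraries. Zfp941 is lowest in sg6 (0.266 to 0.426 CPM in polyA), and Zfp810 is highest in sg5 (0.882 to 1.12 CPM).

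The clones were also compared directly. In polyA, 3 members were higher in sg5 than in sg6 (*Zfp810*, *Zfp941* and *Zfp984*) and 0 lower, where 1.36% of all genes were higher and 1.25% lower. An unadjusted p below 0.05 was reached by 34 of the 148 members (23.0%) beside 17.0% of all genes, and 6 members had an adjusted p below 0.05. DESeq2 also called 3 members higher and 0 lower, with 289 higher and 244 lower among all genes. In rRNA-depleted RNA *Zfp941* alone was called, at 3.72 ± 0.62 (adjusted p = 0.0151; 0.0581 without sg6 replicate 3), with 0 members lower, where 0.207% of all features were higher and 0.259% lower. Over genes alone these shares were 0.556% and 0.925%, beside 0.719% of members higher. There 15 of 139 members (10.8%) had an unadjusted p below 0.05 beside 13.5% of all genes, and DESeq2 called 2 members higher and 0 lower.

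Fold changes of the 139 members tested in both kinds of library went the same way for 91 in sg5 and 105 in sg6. Pearson's r across these members was 0.736 in sg5 and 0.779 in sg6 and Spearman's rho 0.629 and 0.755, given as a description since the members are not replicates. Of the 10 members called in polyA in sg5, 5 were tested in rRNA-depleted RNA, 3 of those were called there in the same direction and 4 had the same sign. Of 15 called in sg6, 10 were tested, 7 were called in the same direction and 9 had the same sign. The exceptions in sign were *Zfp850*, called higher in sg5 in polyA at 1.03 ± 0.27 (adjusted p = 0.02) and at -0.08 in rRNA-depleted RNA, and *Zfp984* in sg6.

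**Figure D4:**
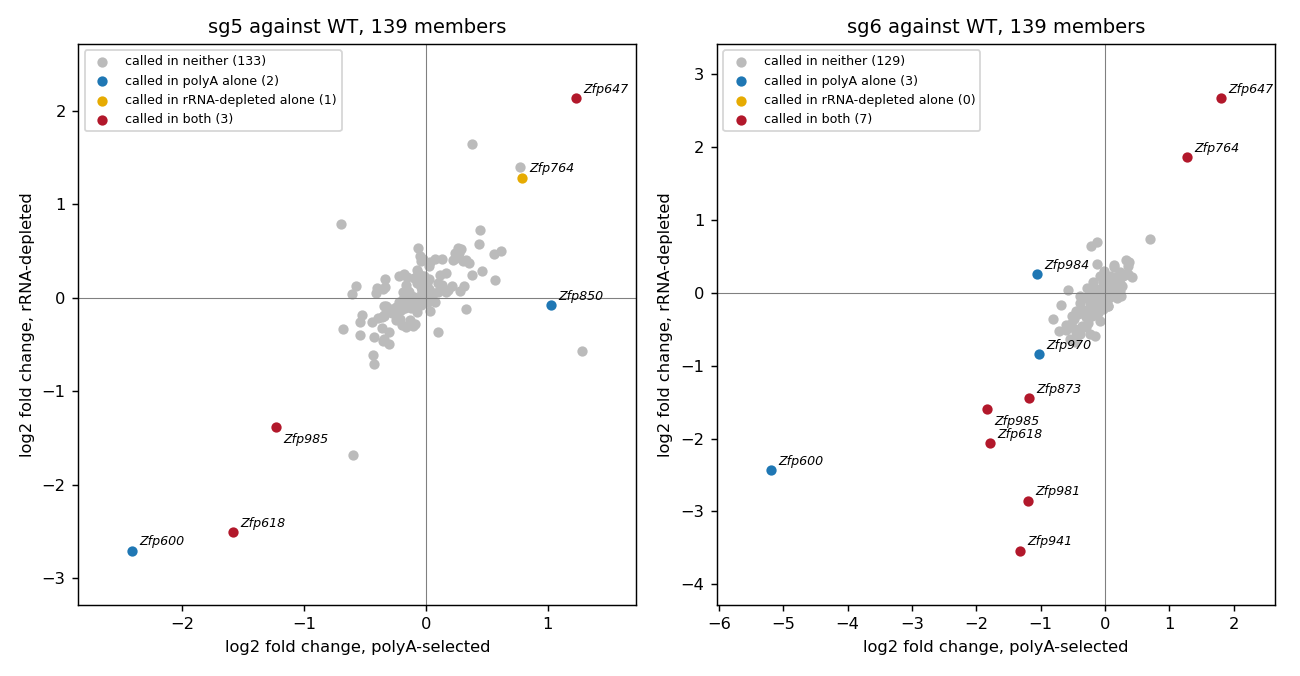
Log2 fold change of the 139 members tested in both kinds of library, polyA-selected on the x axis and rRNA-depleted on the y axis, for sg5 and sg6 against WT; each point is 1 member, coloured by where it was called, and the legend gives the number of each. Zfp647, Zfp618 and Zfp985 are called in both kinds in both clones, and Zfp984 lies at -1.06 and 0.26 in sg6.

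The 197 listed genes from Zfp1 to Zfp599 gave a comparison within the same naming family. Of 189 tested in polyA, 0 were higher and 4 lower in sg5 and 0 were higher and 6 lower in sg6, with medians of -0.05 and -0.06. The lower shares were 2.12% and 3.17%, beside 4.73% and 8.11% of members and 6.96% and 7.54% of all genes. Of 178 tested in rRNA-depleted RNA, 1 was higher and 1 lower in sg5 and 0 were higher and 3 lower in sg6. There 0.562% and 1.69% were lower, beside 1.44% and 3.6% of members and 4.31% and 3.59% of all genes. Of 30 genes of the silencing machinery that KRAB zinc finger proteins use, among them *Trim28*, *Setdb1*, *Cbx5* and *Dnmt1*, 1 was lower in both clones in both kinds of library, *Atrx* itself. That is 3.33% of the list, beside 5.48% of all genes in polyA and 2.62% in rRNA-depleted RNA. *Mphosph8*, a subunit of the HUSH complex that binds H3K9me3, was the other one called, higher in sg5 in rRNA-depleted RNA at 1.19 ± 0.21 (adjusted p = 0.00469), from 11.6, 14.6 and 11.6 CPM in WT to 22.7, 35.7 and 28.0. Smaller changes in both clones of polyA had an adjusted p under 0.05. *Atf7ip*, *Mbd1*, *Mphosph8* and *Tasor* were higher and *Cbx1* and *H3f3b* lower. *Tasor* was at 0.70 and 0.61 in polyA. In rRNA-depleted RNA it alone of these passed in both clones, at 0.85 and 0.80.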

How the data were processed

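Bulk RNA-seq of 18 libraries was used. For the 9 polyA libraries the authors quantified reads with Salmon (0.8.2 in the submitters' processing notes) on mm10 genes and deposited the estimated counts per gene without normalization, which are whole numbers and were used as such. For 9 libraries of rRNA-depleted RNA, reads went through STAR alignment, and the authors counted genes and transposable element loci with TElocal, which shares out reads with several alignments, and deposited these read counts. The strand setting of either counting is not given in the sources used here. All per-sample columns were used.

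The members and lists were chosen with earlier results of these data known. Symbols, coordinates and promoters came from RefSeq (GRCm38.p6), and of 24100 listed genes 24045 matched a symbol. Exonic lengths, fingers, KRAB patterns and shared 31-base words came from GENCODE annotation and transcripts. The finger and KRAB patterns are text matches.

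Features were filtered with filterByExpr (minimum count 10), scaled by TMM and tested with edgeR 4.0.16 in R 4.3.3 in 1 fit of 3 groups for each kind, with p-values adjusted over all features tested; the fit was tested on simulated data. Alternatives were DESeq2 1.42.0, median-of-ratios scaling, other filters and thresholds, a replicate block, only the 2 groups compared, thinning, genes alone, fits without 1 library, members with at most 50% of their words shared and other joining distances; centring on chromosome medians was chosen after seeing the data. Genes named are members called in both clones, called between the clones, called in opposite directions, highest per length or at the ends of a cluster, plus called silencing genes. Other called members, *Zfp809*, silencing genes that were not called and neighbours that are no members were named after their values were seen. Figures were drawn with matplotlib 3.10.9. Depth limits genes below 1 CPM most, and intervals cover counting error only.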

Additional observations from a re-analysis of the deposited data

Results flagged for a closer look

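Sg5 and sg6 differed for 3 members in polyA and 1 in rRNA-depleted RNA by edgeR's quasi-likelihood test of sg5 against sg6. In polyA, *Zfp810* was higher in sg5 by 2.34 on the log2 scale, *Zfp941* by 1.88 and *Zfp984* by 1.04, in each case with all 3 sg5 libraries above all 3 sg6 libraries. In rRNA-depleted RNA *Zfp941* was higher in sg5 by 3.72, on 2, 2 and 0 counts in sg6. The polyA call of *Zfp984* was lost without sg6 replicate 1, and that of *Zfp941* in rRNA-depleted RNA without sg6 replicate 3. For *Zfp984* the difference in rRNA-depleted RNA did not pass, at -0.02 (adjusted p = 0.991). Sg5 polyA libraries were deeper than all others, and with counts thinned to the smallest library 3 members were still higher in sg5.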

How the results depend on the processing

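No result reversed under any alternative run. In the order sg5 higher, sg5 lower, sg6 higher and sg6 lower than WT, edgeR's quasi-likelihood test called 3, 7, 3 and 12 members in polyA and 2, 2, 2 and 5 in rRNA-depleted RNA. An adjusted p below 0.05 alone gave 12, 18, 10 and 28 in polyA, 8 higher and 13 lower in both clones, and, for sg5 against sg6, 5 higher and 1 lower. These are out of 148 members tested. Among all 15480 genes that threshold gave 2105, 2075, 2491 and 2260 in the same order, and, for sg5 against sg6, 327 higher and 414 lower. A log2 fold change beyond 2 with adjusted p below 0.01 gave 1, 2, 0 and 3 in polyA, 0 and 2 in both clones and 1 between clones, and in rRNA-depleted RNA 0, 1, 1 and 1, then 0, 0 and 0. Testing for changes larger than 1 (log2) gave 1, 2, 1 and 5, then 0 and 2 in both clones and 1 between clones, and in rRNA-depleted RNA 0, 1, 2 and 1, then 0, 0 and 0. At least 10 counts in every library left 3 lower in sg5 and, in both clones, 1 higher and 3 lower in polyA, and 1, 1, 1 and 2 in rRNA-depleted RNA with 1 and 1 in both clones and 0 between clones, since fewer genes are tested. Members with at most 50% of their words shared gave 7 lower in sg6 in polyA, as fewer members enter. Thinned counts, and fits of only the 2 groups compared, each left 1 higher in both clones in polyA, and the latter 0 higher in sg5 than in sg6 in rRNA-depleted RNA, where DESeq2 gave 2; the cause was not tested. Without TE loci, without a filter, with median-of-ratios size factors and after centring on chromosome medians, chosen after seeing the data, counts stayed within 1.5 times. With 500000 bases joining members, the chromosome 4 cluster's medians in sg5 and sg6 were -1.30 and -1.92 in polyA and -1.69 and -2.43 in rRNA-depleted RNA, over 4 and 3 tested members in place of 9 and 7. These are for the part from *Zfp980* to *Zfp981*, and the other part had -0.04 and -1.06 in polyA and 0.00 and -0.10 in rRNA-depleted RNA.

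Leaving out each library gave, in rRNA-depleted RNA, 1 to 3 higher and 1 to 2 lower in sg5, 2 to 5 lower in sg6, 1 to 2 higher and 0 to 2 lower in both clones, and 0 to 1 higher in sg5 than in sg6; in polyA it gave 1 to 2 higher in both clones. Same-numbered libraries deviated together with a mean correlation of 0.26 (0.026 to 0.43) in polyA and 0.294 (-0.229 to 0.638) in rRNA-depleted RNA. Differently numbered libraries had means of -0.127 (-0.462 to 0.252) and -0.145 (-0.605 to 0.556). The main fit took no pairs because the study's methods name no covariate, and an effect shared by same-numbered libraries stays in its spread. With a replicate block in edgeR, 7252 genes in place of 6024 had an unadjusted p below 0.05 for sg5 in polyA. Among the counts of called members this block changed 1, from 1 to 2 members higher in sg5 than in sg6 in rRNA-depleted RNA. Depth limits members below 1 CPM, and 20 members had too few rRNA-depleted counts to test.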
